A study of Drosophila melanogaster with 6 samples.

Results

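The 7 genes described here encode the ecdysone receptor EcR, its DNA-binding partner usp, the corepressor Smr and the cofactors tai, trr, rig and Utx. They were chosen by symbol, and each was found once among the 24278 entries of the count table, which hold 17895 genes. RNA-seq was performed on whole intestines of Drosophila melanogaster larvae of 2 genotypes, named control and EcRi, with 3 biological replicates each. By the crosses in the methods, all larvae carried LexO-spok RNAi driven by Tub-LexA, which removes endogenous ecdysone (spoki), Tub-GAL80ts, and a UAS hairpin against EcR. By the same crosses the EcRi larvae also carried Myo1A-GAL4, a driver active in enterocytes, and the control larvae carried no GAL4 driver. The sample titles, however, call the control myo1a-con, and a supplementary table of the study speaks of a control knockdown with that driver, so whether the control held the driver, and the EcR hairpin or another one, is unresolved. Larvae spent 6 days at 18 °C and 4 days at 29 °C, the temperature at which GAL80ts no longer blocks GAL4 and LexA. The knockdown was therefore aimed at enterocytes, while the RNA came from every cell of the gut. In such bulk RNA, fewer cells of a type and less RNA per cell cannot be told apart. How many larvae were pooled in a library is not given in the sources used here.

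EcR is a nuclear receptor that binds 20-hydroxyecdysone, the active insect steroid hormone, and it works on DNA as a heterodimer with usp, the fly orthologue of the vertebrate retinoid X receptor. Without hormone the pair recruits corepressors such as Smr and keeps target genes low. With hormone it exchanges them for coactivators, among them the p160-type protein tai and the histone H3 methyltransferase trr, and the demethylase Utx works in one complex with trr. In the larval gut this hormone drives the changes that precede metamorphosis, when larval midgut cells are removed.

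The libraries held between 200890663 and 246255664 counts, and CPM values below are counts scaled to library size with TMM factors. Control libraries had TMM factors from 0.713 to 0.845 and EcRi libraries from 1.21 to 1.298, so the scaling sets directions for genes with modest changes. Dropping TMM moved the median over the tested entries from 0.03 to 0.68 on the log2 scale. Each gene is therefore also given relative to that median. All 7 genes passed the filter on low counts, with between 2299 and 33023 counts in any library, a depth at which counting error alone is at most 2.09% of a value.

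In edgeR's quasi-likelihood test at an adjusted p of 0.05, 2 of the 7 genes were higher in EcRi, namely Utx and tai, against 30.1% of the 12193 tested entries. The count of lower genes was 1, usp, against 29.3% of entries (59.5% in either direction), and the remaining 4 genes, EcR, Smr, trr and rig, did not pass the test. The same 3 genes were those whose libraries did not overlap between genotypes, where 34.9% of all entries lay wholly higher in EcRi and 33.4% wholly lower. The median log2 fold change of the 7 genes was 0.09, beside 0.03 for all entries. These shares are near the background, and what follows describes the genes one by one. When library totals replaced TMM, 6 genes were called higher and none lower, beside 57.3% and 12.7% of all entries.

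**Figure D1:**
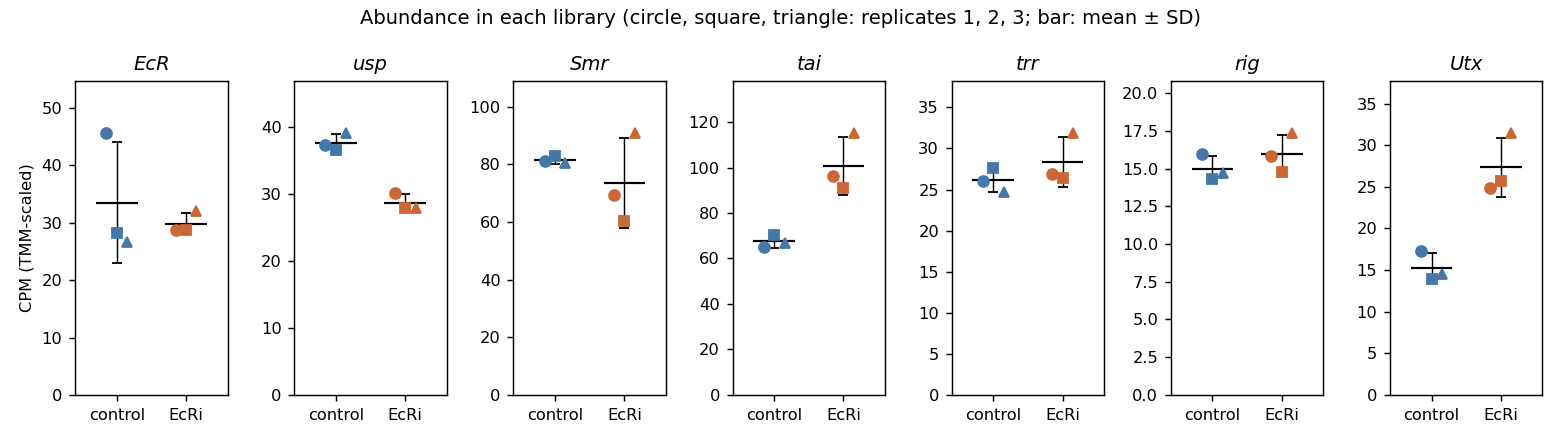
TMM-scaled CPM (vertical axes, each starting at 0) of the 7 genes in the 3 control and 3 EcRi libraries, with points for replicates and bars for the mean ± SD. Values of usp fell from 36.6 CPM or more to 30.1 or less with TMM (without TMM its log2 fold change was 0.26), those of tai and Utx lay higher in every EcRi library, and the other 4 genes overlapped.

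EcR (FBgn0000546) occupies 6087873 to 6169087 of chromosome 2R, minus strand, in the BDGP6 annotation (dm6 coordinates). Its abundance was 45.6, 28.3 and 26.6 CPM in control replicates 1, 2 and 3, and 28.8, 28.7 and 32.0 CPM in the EcRi replicates. Control replicate 1 was the highest of all 6 libraries, and every EcRi library lay between it and the other control libraries. Mean abundance of EcR was 33.5 ± 10.5 CPM without and 29.9 ± 1.87 CPM with the labelled knockdown (SD, n = 3 per genotype). The log2 fold change was -0.17 (standard error 0.21, adjusted p = 0.517, edgeR), with a 95% interval from -0.66 to 0.32, or from 0.635 to 1.25 as a fold. Permuting the 6 libraries exactly, two-sided, gave p = 1, where 3 against 3 libraries cannot give less than 0.1. Without control replicate 1 the log2 fold change was 0.10, and without TMM it was 0.47, so no direction was shown for EcR. Relative to the median of all entries it was -0.20 with TMM and -0.21 with totals.

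The labelled knockdown was thus not seen in the gene-level count of EcR. A driven hairpin is itself transcribed from EcR sequence, and its reads cannot be told apart from gene reads in these counts. The coefficient of variation of EcR was 31.4% in the control and 6.25% in EcRi. EcR in control replicate 1 was 1.61 times the next control library, a gap that 428 of the 12193 tested entries, or 3.51%, equalled or exceeded. Of 11 early ecdysone response genes, 8 also had their highest control value in replicate 1, against 33.5% of all tested entries, a comparison chosen after the values were seen. Among them br, a zinc finger factor of the early response, had 44.6, 29.1 and 20.5 CPM in control replicates 1, 2 and 3. The summed level of 7 fat body markers also varied within genotypes, with 782.4, 124.1 and 37.4 CPM in the control replicates and 333.5, 192.7 and 949.9 CPM in EcRi, the highest library of each genotype being the one with most EcR. This marker group was picked out from the others after the values were seen. EcRi replicate 3 had more of its signal than control replicate 1 (949.9 against 782.4 CPM) but less EcR (32.0 against 45.6 CPM). The part of fat body tissue in the EcR values was not tested.

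The gene spok (FBgn0086917), which encodes the ecdysone biosynthesis enzyme targeted by the LexA hairpin in all larvae, had 18.6, 15.4 and 8.66 CPM in the control replicates and 31.6, 32.1 and 33.9 CPM in EcRi. Its log2 fold change was 1.19 (standard error 0.26, adjusted p = 0.00814, edgeR), and reads of that hairpin were not separated either.

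The partner gene usp (FBgn0003964) lies on the X chromosome from 2038798 to 2042311, on the minus strand. It had 37.3, 36.6 and 39.0 CPM in the control libraries and 30.1, 27.9 and 27.9 CPM in the EcRi libraries. Every EcRi library lay below every control library, and the values within a genotype were close, with coefficients of variation of 3.34% and 4.57%. The log2 fold change of usp was -0.39 with TMM (standard error 0.08, adjusted p = 0.00268, edgeR, interval from -0.57 to -0.22), but 0.26 with library totals, where it was called in the opposite direction (adjusted p = 0.0493). Relative to the median of all entries it was -0.43 and -0.42 under these scalings. The exact permutation test gave p = 0.1, the smallest that 3 against 3 libraries allow. Exons of usp share 265 bases, 8.72% of its exon length, with the same-strand gene Actn, which encodes the muscle protein alpha-actinin, and 196 of its bases with CG4313 on the other strand. Actn itself had 52.3, 72.7 and 60.3 CPM in the control libraries, and 54.4, 57.7 and 62.3 CPM in those of EcRi, and it did not pass the test (adjusted p = 0.588, edgeR).

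Smr (FBgn0265523), on the X chromosome from 12684203 to 12742618, encodes the large corepressor that EcR holds in the absence of hormone. It had 81.0, 82.7 and 80.4 CPM in the control libraries and 69.2, 60.4 and 90.7 CPM in the EcRi libraries. The control libraries were nearly alike, whereas EcRi replicate 3 lay above all of them and the other EcRi libraries below. The coefficient of variation was accordingly 1.49% in the control and 21.2% in EcRi. The log2 fold change was -0.15 (standard error 0.15, adjusted p = 0.411, edgeR), with an interval from -0.49 to 0.19. It was -0.33 without EcRi replicate 3 (adjusted p = 0.0231) and 0.51 without TMM (adjusted p = 0.0278), so both the call and the direction depended on these choices.

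The gene tai (FBgn0041092), on chromosome 2L from 9166778 to 9250211, encodes the coactivator of the receptor that was first found for its part in border cell migration in the ovary. It had 65.2, 70.5 and 66.7 CPM in the control libraries, and 96.3, 90.9 and 115.03 CPM in those of EcRi. All EcRi libraries lay above all control libraries. The log2 fold change was 0.58 (standard error 0.11, adjusted p = 0.00232, edgeR), a rise of 1.49 times, with an interval from 1.26 to 1.77 times. Relative to the median of all entries the rise of tai was 0.55 on the log2 scale with either scaling. With each library left out in turn it stayed between 0.47 and 0.65.

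Utx (FBgn0260749), on chromosome 2L from 10272325 to 10278811, encodes a demethylase that removes the histone H3 methylation laid down by Polycomb proteins. It had 17.3, 13.9 and 14.6 CPM in the control libraries, and 24.8, 25.8 and 31.4 CPM in those of EcRi. The lowest EcRi library was above the highest control library. Its log2 fold change was 0.84 (standard error 0.13, adjusted p = 0.000856, edgeR), or 1.79 times with an interval from 1.46 to 2.20 times, and 0.81 relative to the median of all entries with either scaling. No other gene of the 7 had a change of this size, and it lay at percentile 79.0 of log2 fold changes over all tested entries.

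The methyltransferase gene trr (FBgn0023518), on the X chromosome from 1881313 to 1889950, encodes the catalytic partner of Utx, which methylates histone H3 at enhancers and promoters of active genes. It had 26.1, 27.6 and 24.7 CPM in the control libraries, and 26.8, 26.4 and 31.8 CPM in those of EcRi. The genotypes overlapped, with EcRi replicate 3 above the rest. The log2 fold change was 0.12 (standard error 0.10, adjusted p = 0.339, edgeR), with an interval from -0.11 to 0.35. The call was gained with library totals, which gave 0.77 (adjusted p = 0.00175), a value close to the shift of the median.

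The gene rig (FBgn0250850), on chromosome 2R from 20633876 to 20640681, encodes a WD40-repeat protein that binds nuclear receptors and is needed for ecdysone responses in Drosophila larvae. It was the least abundant of the 7 by CPM, with 15.96, 14.3 and 14.7 in the control and 15.8, 14.8 and 17.3 in EcRi. The libraries of both genotypes overlapped. Its log2 fold change was 0.09 (standard error 0.09, adjusted p = 0.433, edgeR), with an interval from -0.13 to 0.31, and 0.74 with totals (adjusted p = 0.00122). The annotated exons of tai, trr, rig and Smr share at most 1.97% of their bases with any one other gene, and those of EcR and Utx share none.

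**Figure D2:**
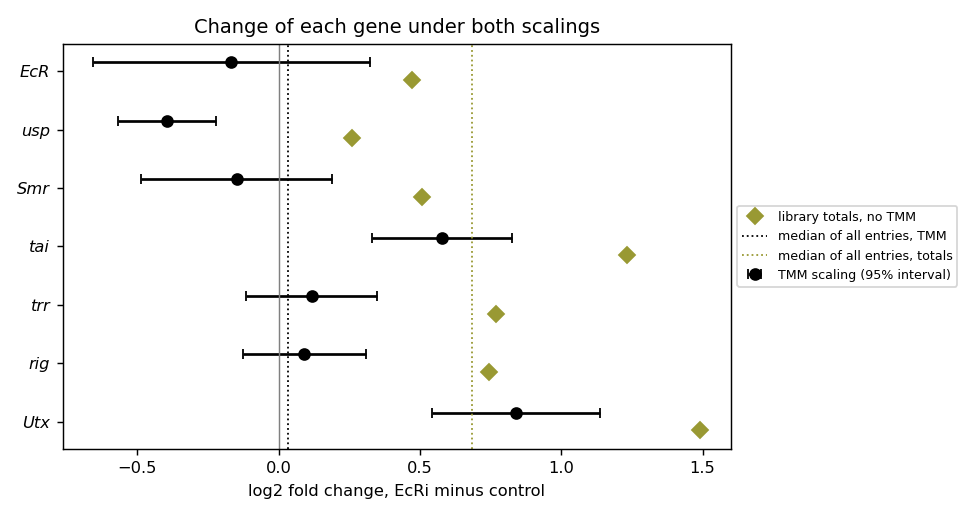
Log2 fold change, EcRi minus control, of each gene (horizontal axis) with TMM scaling (circles, 95% intervals) and with library totals (diamonds), beside the median of all 12193 tested entries under each scaling (dotted lines at 0.03 and 0.68). Each gene kept its distance to the median, from -0.43 for usp to 0.81 for Utx with TMM, while EcR, usp and Smr changed sign between scalings.

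To compare the genes with each other independently of any scaling between libraries, ratios were taken within each library for 6 pairs. The ratio of tai to usp was 1.75, 1.93 and 1.71 in the control libraries and 3.19, 3.26 and 4.13 in the EcRi libraries. The difference in log2 ratio was 0.97, from 0.84 ± 0.09 to 1.81 ± 0.21 (SD, n = 3 each), and the genotypes did not overlap. The ratio of Utx to its partner trr was 0.665, 0.504 and 0.590 in the control and 0.925, 0.977 and 0.987 in EcRi, a log2 difference of 0.72. In EcRi both genes thus had nearly equal counts, which in the control they did not. Their exon lengths differ, with 4418 bases for Utx and 8314 for trr, so equal counts are not equal levels. Per kb of annotated exon, Utx had 3.46 CPM and trr 3.14 CPM on average in the control. In EcRi these averages were 6.19 and 3.41 CPM per kb. The ratio of trr to the corepressor gene Smr was 0.322, 0.334 and 0.307 in the control and 0.388, 0.436 and 0.351 in EcRi, a log2 difference of 0.28 with no overlap. For each of these 3 ratios the two-sided exact permutation test gave p = 0.1, the smallest possible with 3 against 3 libraries, and 0.2 after Benjamini-Hochberg adjustment over the 6 ratios, so no ratio could have passed 0.05. The share of all gene pairs without overlap was not computed. Of single entries, 34.9% lay wholly higher in EcRi and 33.4% wholly lower with TMM. The ratio of tai to usp also joins a gene called higher to a gene called lower.

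The remaining 3 ratios contained EcR and overlapped between the genotypes. EcR to usp was 1.22, 0.773 and 0.682 in the control and 0.956, 1.03 and 1.15 in EcRi, a log2 difference of 0.27 (exact permutation p = 0.4, adjusted p = 0.6). Counts of the receptor and of its partner were thus of similar size in all 6 libraries. However, EcR has 9934 exon bases and usp 3038. Per kb of annotated exon, EcR had 3.37 CPM and usp 12.4 CPM on average in the control. In EcRi these averages were 3.005 and 9.42 CPM per kb. Smr to EcR had a log2 difference of -0.04 (exact permutation p = 0.8) and rig to EcR one of 0.21 (exact permutation p = 0.5). In all these ratios control replicate 1 stood apart from the other control libraries, as it did for EcR alone.

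**Figure D3:**
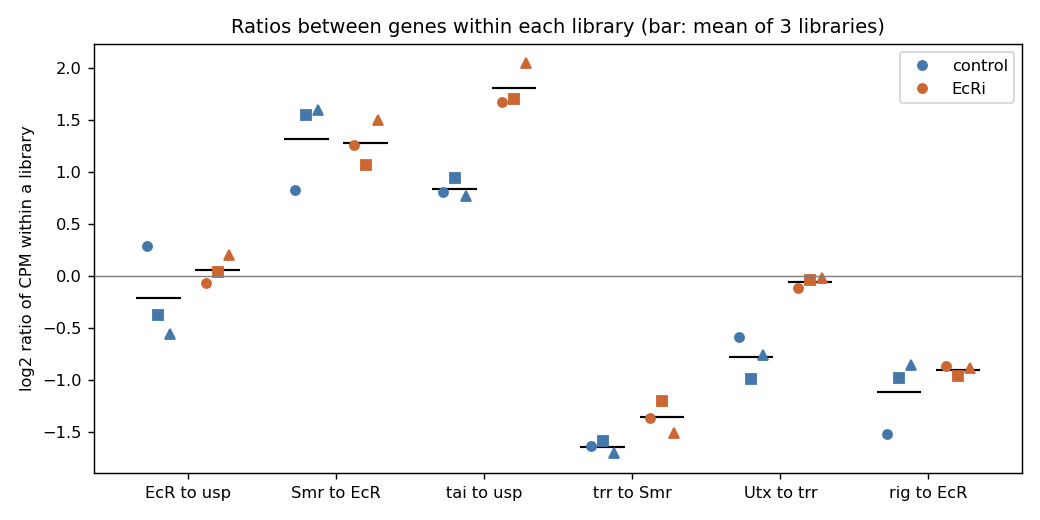
Log2 ratio of CPM between pairs of genes within each library (vertical axis), control and EcRi side by side, with symbols for replicates 1, 2 and 3 and bars for the mean. The ratios tai to usp, trr to Smr and Utx to trr did not overlap between genotypes, and the 3 ratios with EcR did. The share of all gene pairs without overlap was not computed.

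Counts grow with transcript length, so levels between genes were compared as CPM per kb of annotated exon. This length joins the exons of all annotated transcripts, 9934 bases over 6 transcripts for EcR and 3038 over 2 for usp. Which transcripts were present was not measured, and usp shares 8.72% of its exon bases with Actn, so the order is approximate. On this scale usp was the most abundant in the control, with 12.4 ± 0.414 (SD, n = 3). It was followed by tai with 5.67 ± 0.229 and Smr with 5.22 ± 0.0780, and the ranges of these 3 genes were separate. The other 4, rig, Utx, EcR and trr, lay between 3.14 and 3.64 on average, and each overlapped its neighbour in this order. The median over 11305 tested genes was 4.87, and usp was at percentile 68.4 of these genes in the control while EcR was at percentile 44.1.

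In EcRi the order was usp, tai, Utx, Smr, rig, trr and EcR, with averages of 9.42, 8.46, 6.19, 4.72, 3.87, 3.41 and 3.005 CPM per kb. Of the neighbouring pairs in this order, tai and Utx had separate ranges over the 3 libraries and the others overlapped. Within each library, however, Utx was above Smr, Smr above rig, rig above trr and trr above EcR in 3 of 3 EcRi libraries. In EcRi replicate 3 tai exceeded usp, with 9.66 against 9.17 CPM per kb. EcR was the lowest of the 7 in 5 of the 6 libraries, the exception being control replicate 1, where it ranked the fourth. Reads of the hairpin, where present, would be included in this level.

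**Figure D4:**
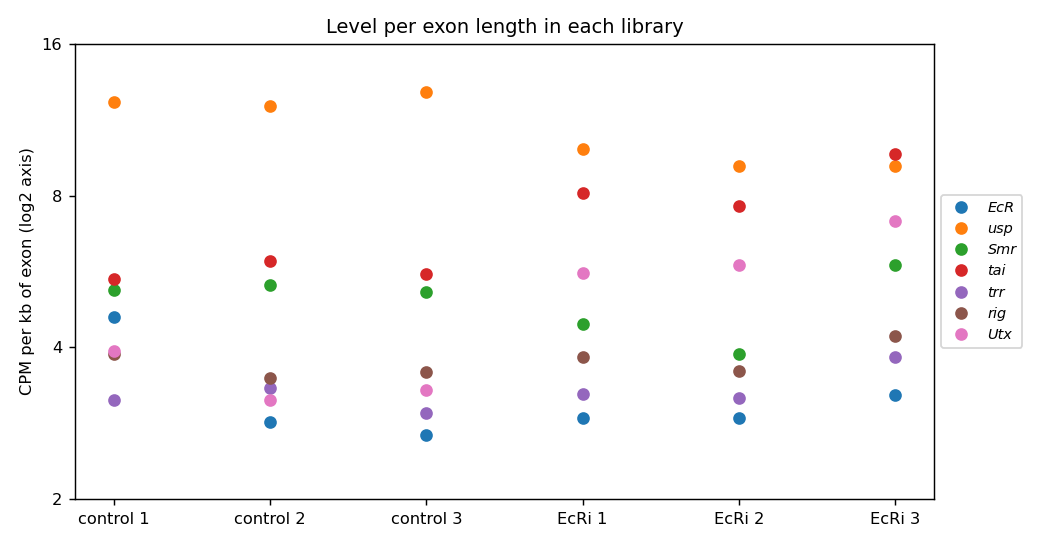
CPM per kb of annotated exon (log2 vertical axis) of the 7 genes in each library. In the control usp lay between 12.05 and 12.85 and far above the others, and in EcRi tai, between 7.63 and 9.66, overlapped usp.

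The genes whose pattern over the 6 libraries was closest to that of EcR were Nhe2, Vps13D, Nipped-B, PlexA and Set1, out of 5894 other genes with at least 10 CPM. Their root mean square difference from EcR in mean-centred log2 CPM lay between 0.09 for Nhe2, a sodium/proton exchanger gene, and 0.16 for Set1, a histone methyltransferase gene, where the median gene had 0.40. Nhe2 had 27.3, 17.8 and 19.0 CPM in the control libraries, and 18.6, 20.1 and 20.6 CPM in those of EcRi, so that it too was highest in control replicate 1. None of the 5 passed the test between genotypes (adjusted p from 0.573 to 0.959, edgeR). Closest to usp were CG32264, Madm, CG3860, eRF3 and Cog4, with differences from 0.01 to 0.03 where the median gene had 0.34. All 5 passed the test with TMM, and their log2 fold changes lay between -0.41 and -0.40, but between 0.24 and 0.26 with totals. Because these genes were chosen for closeness over the same 6 libraries, their fold changes, calls and highest libraries follow largely from that choice. They are no separate evidence about EcR or usp. This likeness describes 6 libraries of 2 genotypes and carries no test.

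Further genes of the receptor machinery were followed as lists written from general knowledge. The complex of trr contains a scaffold shared by histone methyltransferases and subunits of its own. Of its 10 listed genes, all tested, 4 were higher and 1 lower, and the list's median was 0.17 on the log2 scale. As for the lists that follow, this is to be read beside 30.1% higher, 29.3% lower and a median of 0.03 over all entries, and the counts here are near those shares. The gene ash2, which encodes one of the shared subunits, rose more than Utx, from 22.4, 24.0 and 24.4 CPM in the control to 62.9, 76.6 and 55.7 CPM in EcRi. Its log2 fold change was 1.46 (standard error 0.12, adjusted p = 4.64e-05, edgeR) and it was 2.12 with totals. Lpt and Ncoa6, 2 subunits particular to the trr complex, had log2 fold changes of 0.40 and 0.35 and both passed the test (adjusted p of 0.0123 and 0.0276, edgeR). Ptip and Pa1, which encode further subunits of that complex, were at 0.23 and 0.11 and did not pass (adjusted p of 0.1998 and 0.509, edgeR). Dpy-30L1 was lower with TMM, at -0.40, but it was 0.26 with totals. The core subunit genes wds and Rbbp5 did not pass the test, at -0.03 and 0.12.

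Among 10 genes of corepressor and histone deacetylase partners, 9 were tested, none was higher and 2 were lower, beside 30.1% and 29.3% of all entries, with a median of 0.01. These were alien, which encodes a signalosome subunit and corepressor and shares 30.02% of its exon bases with CG17906, at -0.61, and the deacetylase gene HDAC1 at -0.28, and with totals both were above 0, at 0.04 and 0.37. Sin3A, the scaffold of a deacetylase complex, was 0.12 and did not pass (adjusted p = 0.446, edgeR). HDAC3 is listed at 0 in all 6 libraries, and all of its 1660 exon bases are shared with CG45100, so these counts do not measure it.

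Of 11 coactivator genes, tai and rig included, 4 were higher and 2 lower, beside 30.1% and 29.3% of all entries, with a median of 0.19. Besides tai, the adaptor genes Ada2b and Ada2a of acetyltransferase complexes had log2 fold changes of 0.51 and 0.44, with 28.8% and 29.5% of their exon bases shared with other genes, and e(y)3 had 0.29. Their acetyltransferase Gcn5 was at -0.56 and TP53INP at -0.43 with TMM, while with totals they were at 0.09 and 0.23. The acetyltransferase gene nej, the fly CBP, stood at 65.1 ± 4.90 CPM in control guts and at 65.1 ± 13.2 CPM in EcRi guts (SD, n = 3 per genotype). Of 10 chromatin remodelling genes, 3 were higher and 2 lower, beside the same shares of all entries (30.1% and 29.3%), with a median of 0.04. Nurf-38, which encodes a subunit of the NURF remodeller that is also an inorganic pyrophosphatase, fell by 1.52 on the log2 scale with TMM and by 0.85 with totals, from 259.2 ± 46.3 to 90.6 ± 6.71 CPM. E(bx), the large subunit of the same remodeller, rose by 0.42 and polybromo by 0.37, whereas brm was at -0.34 with TMM and 0.32 with totals.

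Of 5 chaperone genes that load the receptor pair, 3 were higher and 1 lower, where 30.1% and 29.3% of all entries were, and the median was 0.49. Hsp83, the fly Hsp90, rose from 47.2, 54.4 and 34.96 CPM in the control to 207.9, 394.0 and 692.7 CPM in EcRi, which is 3.25 on the log2 scale (standard error 0.48, adjusted p = 0.00191, edgeR). Its co-chaperone genes differed: DnaJ-1 rose by 1.66 and Stip1 by 0.49, while p23 was at -0.40 with TMM and 0.25 with totals. DnaJ-1 passed the test although its libraries overlapped, with 29.9 CPM in control replicate 1 and 27.7 CPM in EcRi replicate 1.

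In the family of nuclear receptors to which EcR and usp belong, 17 of 21 genes were tested. Of these, 10 were higher and 3 lower, beside 30.1% and 29.3% of all entries, and their median was 0.59 on the log2 scale beside 0.03. Among the higher genes, Hr3 had at most 0.0343 CPM in any control library and Hr51 at most 0.0592 CPM in any library. These values are low. By library totals without TMM factors, 3 counts equal 0.0122 to 0.0149 CPM. Other genes share 82.7% of the exon bases of Hr3 and 29.4% of those of ftz-f1. The genes Hr4 and Eip78C, both of the ecdysone cascade, rose by 4.42 and 1.86. Hr4 went from 0.635, 0.617 and 0.425 CPM in the control to 11.8, 10.5 and 13.9 CPM in EcRi. Of the lower genes, Hnf4, a receptor of lipid metabolism, was at -0.49 with TMM and 0.17 with totals, usp is given above, and Hr38, which encodes another partner of usp, was at -1.29 with TMM and -0.66 with totals at less than 1 CPM. The gene svp, whose product can also pair with usp, rose by 1.85, from 0.685 ± 0.202 to 2.47 ± 0.735 CPM (SD, n = 3 each). Of the 4 receptor genes not tested, tll and dsf had no count, and Hr83 and eg stayed under 0.03 CPM in every library. The early and direct response genes of ecdysone, all 11 tested, had 9 higher and none lower, beside 30.1% and 29.3% of all entries. Their median was 1.33, with vri, a bZIP repressor gene, rising by 2.13, whereas Eip74EF was at 0.04 and did not pass (adjusted p = 0.946, edgeR). The 9 include ftz-f1, at 0.65, which the study describes as repressed by ecdysone signalling, so not all of them are genes that the hormone induces. With TMM 11 of the 11 lay above the median of all entries, and with totals 10 did. The higher genes Eip75B, Eip78C, Hr3, Hr4 and ftz-f1 stand in both this list and that of nuclear receptors, so the counts of these lists are not independent.

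**Figure D5:**
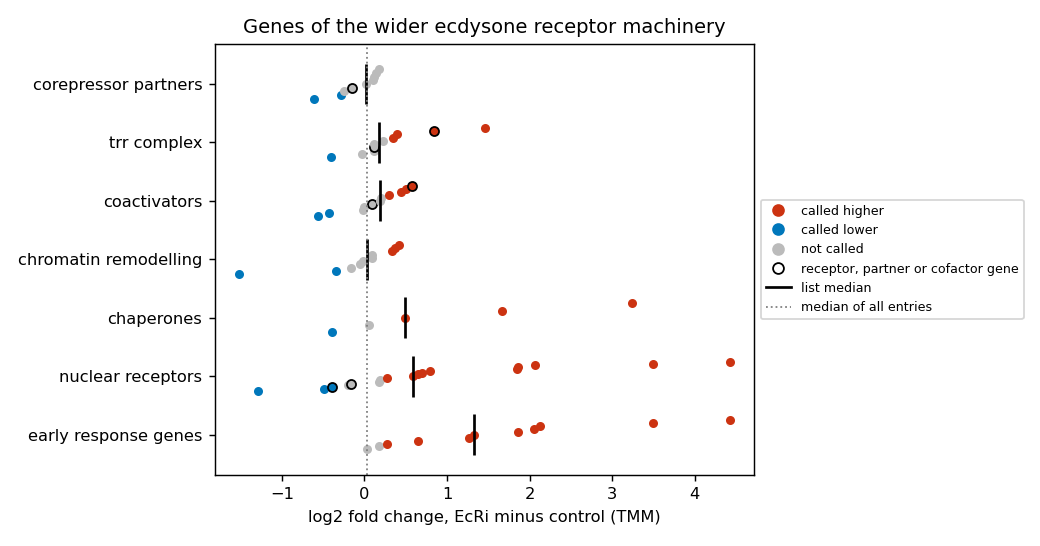
Log2 fold change with TMM, EcRi minus control, of each tested gene in 7 lists (horizontal axis), coloured by call, with ringed points for the 7 genes of the receptor, partner and cofactors and bars for list medians. Early response genes lay mostly to the right, with a median of 1.33, and corepressor partners around the median of all entries, and all genes called lower except Nurf-38 and Hr38 were above 0 with library totals.

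Markers of cell types in the intestine also differed between the genotypes with TMM. Their sums were not taken with library totals, where the median of all entries moved from 0.03 to 0.68 on the log2 scale. The direction or overlap given below for enteroendocrine, Malpighian tubule and haemocyte markers therefore depends on the TMM scaling. Summed over 8 enterocyte markers, control libraries ranged from 14281 to 20038 CPM and EcRi libraries from 4739 to 6134 CPM, with 5 lower and 1 higher in the test, where 29.3% and 30.1% of all entries were. For 8 visceral muscle markers these ranges were 3121 to 3670 CPM and 1264 to 1470 CPM, with 7 lower. For 7 tracheal markers they were 85.5 to 128.6 CPM and 683.9 to 768.6 CPM, with 5 higher, and for 5 progenitor markers 25.7 to 33.4 CPM and 44.5 to 54.2 CPM, with 3 higher. Those of 7 enteroendocrine markers were 129.0 to 141.8 CPM and 118.2 to 124.4 CPM, wholly lower in EcRi with TMM, with 1 lower in the test. Sums of 6 foregut and hindgut markers were wholly higher in EcRi, at 188.7 to 209.1 CPM against 239.8 to 254.3 CPM, with 2 higher. For 5 Malpighian tubule markers the sums were 1854 to 2066 CPM and 1769 to 1826 CPM, with 2 lower and 1 higher. The 6 salivary gland markers, 2 of them tested, summed to at most 0.152 CPM in any control library and to at least 0.512 CPM in EcRi, with 1 higher. The 6 haemocyte markers overlapped between the genotypes, at 217.1 to 261.7 CPM and 225.9 to 251.9 CPM, and none was called. The part of these cell types in the values of usp, tai and Utx was not tested.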

How the data were processed

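Total RNA of whole larval intestines was sequenced in 6 libraries; the labels name a Qiagen RNeasy kit and a SMARTER library kit, the methods TRIZOL. The authors trimmed reads with Trim Galore!, aligned them to dm6 (HISAT2), assigned them to genes (featureCounts, on Galaxy) and deposited raw counts per gene or other annotated entry, without normalization. Versions, strand setting and treatment of reads shared by overlapping genes are not given in the sources used here. Both deposited tables were identical, and 1 was used. The table also holds 6383 entries that are not genes, with at most 0.0912% of the counts of any library.

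The main test was that of edgeR 4.0.16 under R 4.3.3 (filterByExpr, TMM, robust quasi-likelihood test, Benjamini-Hochberg adjustment over all 12193 tested entries at 0.05). The study names limma-voom, which was run as an alternative (limma 3.58.1), as was DESeq2 1.42.0. The standard error is the log2 fold change divided by the square root of F. Log2 CPM used a prior count of 2. Exon lengths, positions and symbols came from the Ensembl release 115 annotation of BDGP6, which covers 99.78% of the genes, and 4 older symbols (DOR, Dl, Alien, CoREST) were matched by hand. Single values were tested with two-sided exact permutation tests (scipy 1.17.1). The fit was tested on simulated data. No 2 libraries of a genotype agreed within sampling noise. Total counts per library ranged from 200890663 to 246255664. Without TMM factors, 3 counts then equal between 0.0122 and 0.0149 CPM, which covers counting error only.

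The members and lists were chosen with earlier results of these data known. All 7 members are named, together with up to 2 called genes in each direction and list with at least 1 CPM, the 5 genes most like EcR and usp, and spok. Other genes of the lists were named after their values were seen. Alternatives changed the tool, the scaling, the filter, the entries, the replicate block and the libraries used.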

Additional observations from a re-analysis of the deposited data

How the results depend on the processing

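Over 105 alternative fits of the 7 genes, 98 kept the direction and the side of the threshold. The others came from library totals without TMM or from leaving out a library. Without TMM, EcR was at 0.47, usp at 0.26 and Smr at 0.51, each opposite in sign to its value with TMM, and trr at 0.77 and rig at 0.74 newly passed the test. The same scaling gave 6982 higher and 1546 lower entries in place of 3676 and 3574, and 6 higher and 0 lower genes of the 7 in place of 2 and 1. When single libraries were dropped, EcR lay between -0.30 and 0.10, usp between -0.43 and -0.36, Smr between -0.33 and -0.0230, trr between 0.03 and 0.17, rig between 0.03 and 0.15, and Utx between 0.73 and 0.92. EcR was above 0 without control replicate 1, and Smr passed the test without EcRi replicate 3, which made 2 lower genes of the 7, against 1 to 2 over these fits. The higher genes of the 7 stayed at 2, and all entries between 3278 and 3486 higher and between 3215 and 3416 lower. The cause of these changes was not tested beyond the shift of the median by the scaling.

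Same-numbered libraries of the genotypes showed no shared deviation (correlations of deviations over tested entries of -0.06, 0.04 and -0.06). These values cannot tell whether such libraries were collected or prepared together. With the replicate block the log2 fold changes were -0.12 for EcR, -0.40 for usp, -0.17 for Smr, 0.57 for tai, 0.11 for trr, 0.09 for rig and 0.84 for Utx, with 3328 higher and 3327 lower entries, and no call of the 7 genes changed. Of 48 alternative values of the ratios, 45 kept their direction. The log2 ratio of Smr to EcR changed sign in 3 of the fits without 1 library, between -0.29 and 0.0916, and that of EcR to usp lay between 0.10 and 0.52. Counting error was at most 2.09% of any value of the 7 genes.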
